A study of Homo sapiens with 8 samples.

Results

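The mitogen-activated protein kinase (MAPK) cascade relays signals from receptors and stress to the nucleus, and 62 of its genes were read on these arrays, out of 14884 genes measured. They were chosen by symbol: numbered genes of the MAPK, MAP2K, MAP3K, MAP4K and DUSP families and the Sprouty (SPRY) and SPRED genes. Of them 36 encode kinases and 26 encode phosphatases or Sproutys. The Sproutys read were SPRY2, SPRY3 and SPRY4, and no SPRED gene was among the 62. RNA came from 8 clones of PC-3, a human prostate cancer line that grows without androgen, and each was read on 1 array. The RWDD4 group was 4 clones (17, 24, 5 and 6) carrying a lentiviral vector with RWDD4, and the control group 4 clones (2, 3, 4 and 5) carrying the empty vector. All clones had passed blasticidin selection, and each group member is a separate clonal line, so differences between clones are part of the spread. The design asks what RWDD4 overexpression changes, and values are log2 expression.

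In a MAPK module a MAP3K phosphorylates a MAP2K, which phosphorylates a MAPK, and MAP4Ks act on MAP3Ks. The ERK arm answers growth factors, and the JNK and p38 arms answer stress and cytokines. Classical dual-specificity phosphatases (DUSPs) remove the phosphates from threonine and tyrosine of a MAPK, and several are themselves induced by the pathway. Sproutys restrain signalling between receptors and RAS, so both can act as negative feedback. Other numbered DUSPs are in the set by symbol, and some have other main substrates.

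RWDD4 itself separated the groups, at 10.42, 10.45, 10.46 and 9.87 in RWDD4 clones 17, 24, 5 and 6, against 6.64, 7.58, 7.21 and 7.996 in control clones 2, 3, 4 and 5 (difference 2.94, exact permutation p 0.0286, two-sided, the smallest that 4 against 4 clones allow). Epithelial markers were present, with KRT18 at 10.61 and KRT19 at 10.24 in the RWDD4 clones and 11.01 and 10.78 in the control clones. The 4 epithelial markers measured had summed levels of 33.6 to 34.1 in RWDD4 clones, against 34.7 to 35.5 in controls, and 3 of them fell. Of the blood markers CD14 and CD68 were measured, both lower, with sums of 14.1 to 14.7 in RWDD4 clones, against 14.6 to 15.4 in controls. The stromal markers PECAM1 and VWF, of which VWF was lower, summed to between 9.80 and 10.2 in RWDD4 clones, against 10.1 to 10.8 in controls. CD14 and VWF lay under 4.93, the median level of all probe sets, while CD68 was at 10.21 in RWDD4 clones and 10.60 in controls. The prostate markers measured, KLK2 and KLK3, did not pass (differences -0.08 and -0.05). All samples are clones of 1 cell line, so these are levels of single genes and not counts of blood or stromal cells. The part of these shifts in the results was not tested. In bulk RNA a shift in some cells of a clone and a shift in all of them cannot be told apart. Control clone 2 stood apart: it was the control clone farthest from its group's median in 28 of the 62 genes, against 8 to 14 for the other control clones, and 14 to 17 for each RWDD4 clone within its own group.

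As a class the cascade genes changed in both directions. By limma at an adjusted p under 0.05, 34 of the 62 changed, against 46.7% of all genes: 17 of the 62 were higher in the RWDD4 clones (27.4%, against 25.1% of all genes) and 17 were lower (27.4%, against 21.6% of all genes). Those shares are near the background, so the counts alone do not set these genes apart. Rises were the larger changes, with a median size of 0.80 log2 units and a maximum of 1.67 among the 17 genes that rose, against a median of 0.48 and a maximum of 0.56 among the 17 that fell. Over all genes the median sizes were likewise 0.86 among rises and 0.41 among falls. The median difference was -0.11 over the 62 genes and -0.08 over all genes. The groups did not overlap in 31 of the 62 genes (50.0%, against 44.8% of all genes), 16 of them higher and 15 lower in the RWDD4 clones (23.7% and 21.1% of all genes).

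**Figure D1:**
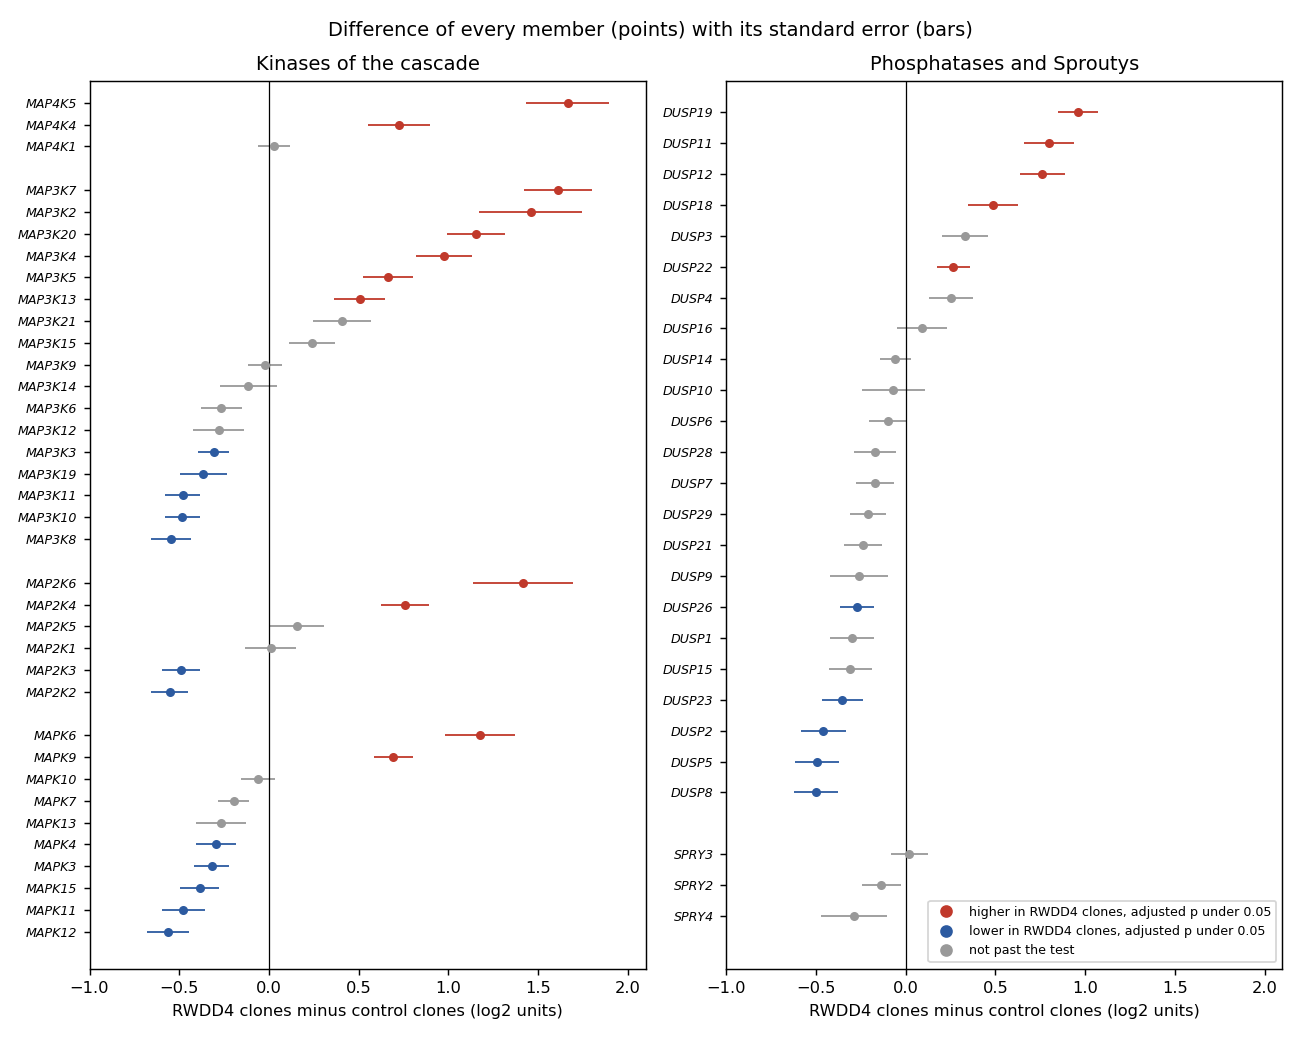
Difference between RWDD4 and control clones (horizontal axis, log2 units) for each of the 62 genes, with the kinases on the left and the phosphatases and Sproutys on the right, and the standard error as a bar. The rises reach 1.67 (MAP4K5), while no fall passes 0.56 (MAPK12), and each kinase family but MAP4K holds genes that passed the test in both directions.

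Of the 36 kinases 12 rose and 12 fell (33.3% each, median -0.04). Of the 26 phosphatases and Sproutys 5 rose and 5 fell (19.2% each, median -0.15), against 25.1% higher and 21.6% lower of all genes; the difference between the classes was not tested. The 26 phosphatases and Sproutys are called inhibitors here for short, although not all DUSPs act mainly on a MAPK. Among the inhibitors the number lower was 3 without RWDD4 clone 5, without RWDD4 clone 6 or without control clone 4. Of all genes 15.2%, 15.6% and 17.7% were lower in those fits. The inhibitors numbered 4 higher and 9 lower after quantile normalization, and 6 higher and 3 lower after median centring or cyclic loess. The scalings also moved the balance over all genes, from 3741 higher and 3214 lower as deposited. It was 3429 and 3694 after quantile normalization (23% and 24.8%) and 3945 and 2373 after median centring (26.5% and 15.9%). After cyclic loess it was 3980 and 2200 (26.7% and 14.8%).

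To show what lies before the start of genes that moved apart, 150 bases upstream are printed for 5 of them: MAP3K7, whose rise was among the largest, the paralogs MAP2K6 and MAP2K3, which changed in opposite directions, DUSP8, which fell, and DUSP1, which did not pass the test. They come from RefSeq (GRCh38.p14), read 5′ to 3′ on the gene's strand and ending at the base before the first listed start, with matches in capitals to motifs bound by MAPK-regulated factors: TGANTCA (AP-1), TGACGTCA (the cyclic AMP response element, CRE) and CCGGAAG (ETS).
MAP3K7 (chr6:90587073-90587222, minus strand): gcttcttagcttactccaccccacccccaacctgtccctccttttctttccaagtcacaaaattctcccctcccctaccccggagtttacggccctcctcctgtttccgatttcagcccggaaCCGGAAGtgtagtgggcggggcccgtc
MAP2K6 (chr17:69414547-69414696, plus strand): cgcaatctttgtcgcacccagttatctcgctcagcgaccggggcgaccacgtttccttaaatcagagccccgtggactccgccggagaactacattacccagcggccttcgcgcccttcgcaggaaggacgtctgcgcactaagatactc
MAP2K3 (chr17:21284561-21284710, plus strand): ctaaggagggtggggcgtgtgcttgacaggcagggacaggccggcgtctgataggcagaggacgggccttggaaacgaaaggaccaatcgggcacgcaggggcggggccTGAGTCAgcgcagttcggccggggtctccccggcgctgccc
DUSP8 (chr11:1572272-1572421, minus strand): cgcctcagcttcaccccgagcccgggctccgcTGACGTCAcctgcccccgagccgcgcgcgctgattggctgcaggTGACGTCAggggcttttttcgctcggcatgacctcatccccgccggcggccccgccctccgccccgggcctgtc
DUSP1 (chr5:172771196-172771345, minus strand): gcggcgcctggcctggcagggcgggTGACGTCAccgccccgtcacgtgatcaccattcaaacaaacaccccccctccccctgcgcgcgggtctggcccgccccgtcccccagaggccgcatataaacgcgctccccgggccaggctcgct
MAP3K7 held an ETS match starting at base -27 from the gene start, MAP2K3 an AP-1 match at -41, DUSP8 CRE matches at -118 and -74, and DUSP1 a CRE match at -125, while MAP2K6 held none of these letters in this window.

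Promoters were found for 56 of the 62 genes (all but DUSP4, DUSP5, DUSP12, DUSP26, MAP3K15 and MAPK15). In the 250 bases before the start, on both strands, CRE letters stood in 4 of 56 (7.14%, against 2.34% of the 10749 measured genes with a promoter): DUSP1, DUSP8, MAP3K13 and MAPK10. Of these MAP3K13 rose, DUSP8 fell, and the other two did not pass the test. ETS letters stood in 3 of 56 (5.36%, against 12.4%), AP-1 letters in 1 of 56 (1.79%, against 5.14%), and the CArG box, which serum response factor binds, in 0 of 56 (against 1.18%). No match overlapped a match of another motif. The median GC content of the window was 66.8% in the 16 genes that rose and 74.0% in the 14 that fell. It was 72.0% in the 26 that did not pass, and 62.8% in all measured genes with a promoter. A match is a description of letters and not evidence of binding.

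At the top of the cascade 2 of 3 MAP4Ks rose and 0 fell (25.1% and 21.6% of all genes), a set too small to read. MAP4K5, a germinal centre kinase that activates the JNK arm, lay at 8.88, 8.99, 8.79 and 9.28 in RWDD4 clones 17, 24, 5 and 6, against 6.63, 7.75, 7.16 and 7.75 in control clones 2, 3, 4 and 5. No clone overlapped, and the difference of 1.67 (SE 0.23), or 3.17-fold, was the largest of the 62 (adjusted p 0.000282). MAP4K4, which acts upstream of JNK, rose by 0.73 (SE 0.17). MAP4K1, a kinase of blood cells, had a difference of 0.03 (adjusted p 0.811).

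Of 17 MAP3Ks 6 rose and 5 fell (35.3% and 29.4%, against 25.1% and 21.6% of all genes). MAP3K7 (TAK1), which links cytokine and TGF-beta receptors to JNK, p38 and NF-kappa-B, lay at 8.47, 8.31, 8.41 and 8.54 in RWDD4 clones 17, 24, 5 and 6, against 6.17, 7.15, 6.86 and 7.10 in control clones 2, 3, 4 and 5. Its lowest RWDD4 clone was over 1 log2 unit above its highest control clone, and it rose by 1.61 (SE 0.19), or 3.06-fold (adjusted p 0.000126). MAP3K2 (MEKK2), which feeds ERK5 and JNK, measured 8.41, 8.36, 8.37 and 8.55 in the RWDD4 clones, against 5.93, 7.65, 7.02 and 7.24 in the control clones. The RWDD4 clones lay close together and the control clones were spread, lowest in clone 2; the difference was 1.46 (SE 0.29) (adjusted p 0.00219).

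MAP3K20 (ZAK), a sensor of stalled ribosomes, had 7.72, 7.43, 7.75 and 7.68 in the RWDD4 clones, against 6.11, 6.92, 6.35 and 6.59 in the control clones, a rise of 1.15 (SE 0.16). MAP3K4 (MEKK4), which activates p38 and JNK, had 7.41, 7.29, 7.68 and 7.39 in the RWDD4 clones, against 6.01, 6.76, 6.55 and 6.55 in the control clones, a rise of 0.97 (SE 0.16). In both genes the groups did not overlap, and control clone 2 was the lowest. The stress kinase MAP3K5 (ASK1) rose by 0.67 (SE 0.14) and MAP3K13 (LZK) by 0.51 (SE 0.14). The groups overlapped in MAP3K13, where control clone 3 (7.02) lay above RWDD4 clone 17 (6.88).

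The MAP3Ks that fell included MAP3K8 (TPL2), which activates MEK downstream of inflammatory receptors. It lay at 4.97, 5.39, 5.24 and 5.13 in the RWDD4 clones, against 5.74, 5.85, 5.78 and 5.54 in the control clones, with no overlap, and fell by 0.55 (SE 0.11) (adjusted p 0.00281). The mixed lineage kinases MAP3K10 (MLK2) and MAP3K11 (MLK3), which activate JNK, fell together. MAP3K10 measured 6.88, 6.88, 6.66 and 6.85 in the RWDD4 clones, against 7.38, 7.37, 7.33 and 7.12 in the control clones, a fall of 0.48 (SE 0.10), and MAP3K11 fell by 0.48 (SE 0.10), both without overlap. MAP3K3 (MEKK3), the closest relative of MAP3K2, fell by 0.31 (SE 0.09) where MAP3K2 rose, and MAP3K19 fell by 0.37 (SE 0.13) with overlapping groups and a level under the median of all probe sets.

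Among the 6 MAP3Ks that did not pass, the differences ran from -0.28 (MAP3K12, the neuronal DLK) to 0.41 (MAP3K21). MAP3K21 (adjusted p 0.0595) and MAP3K6 (-0.27, adjusted p 0.0828) did not overlap between groups, and MAP3K21 passed without control clone 3 (adjusted p 0.0347). MAP3K14 (NIK), the kinase of non-canonical NF-kappa-B signalling, had a difference of -0.11, and MAP3K9 one of -0.02. MAP3K15 had a difference of 0.24 and passed without control clone 3 (adjusted p 0.0275).

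**Figure D2:**
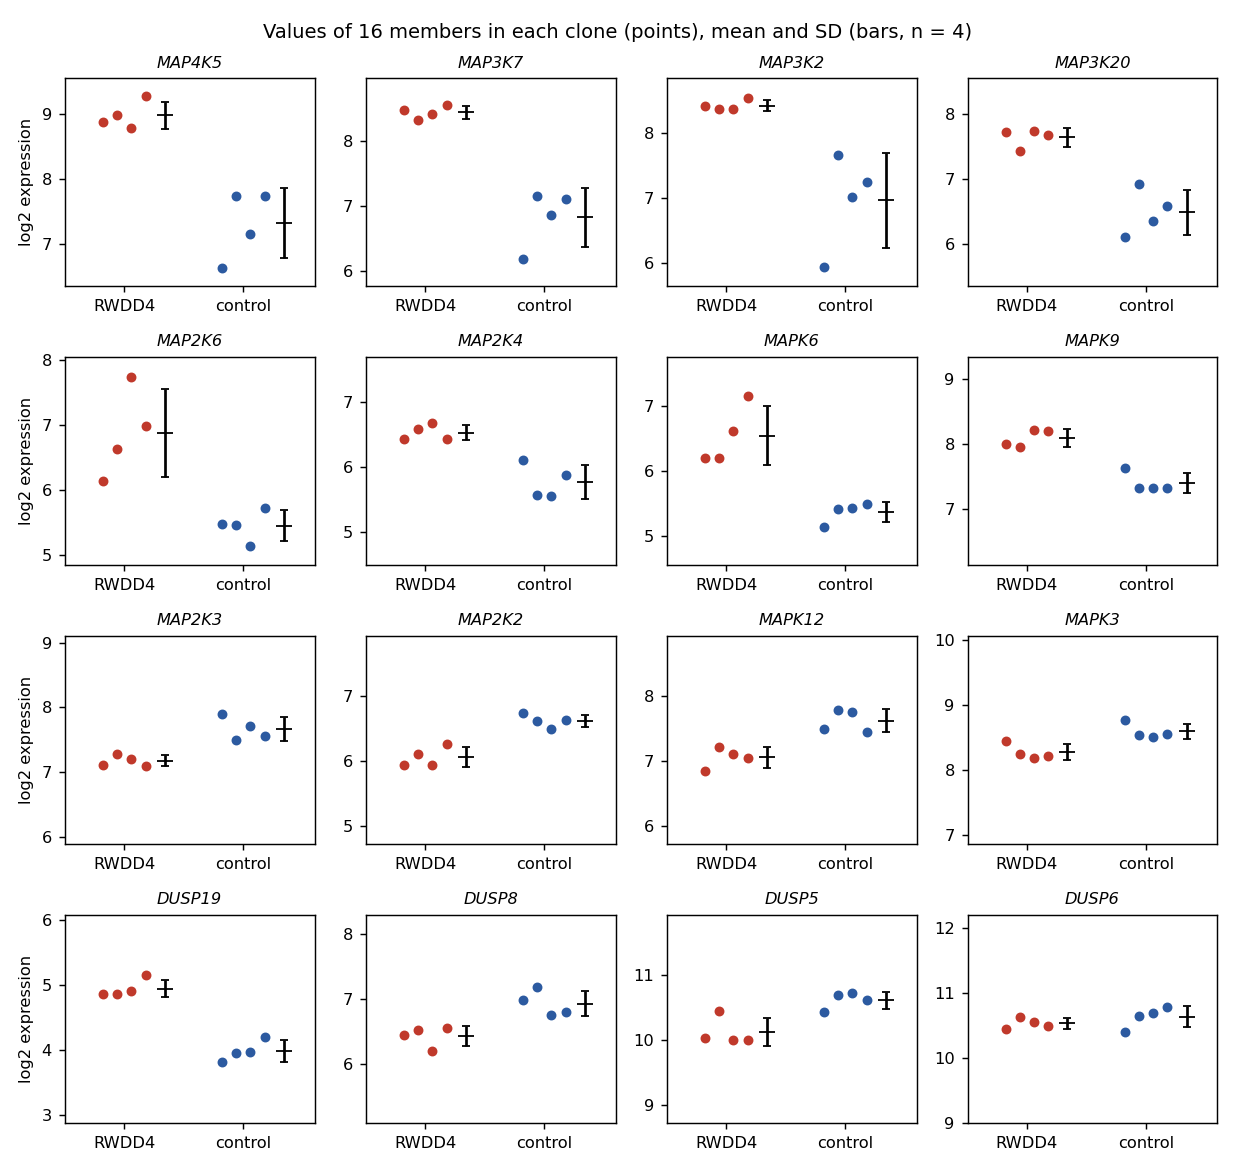
Log2 expression (vertical axis, which spans the same number of units in every panel) of 16 genes in each of the RWDD4 clones (red, 17, 24, 5, 6 from left) and control clones (blue, 2, 3, 4, 5 from left), with the mean and SD in black. MAP4K5, MAP3K7, MAP3K2 and MAP3K20 are lowest in control clone 2, MAP2K6 and MAPK6 spread mostly among the RWDD4 clones, and DUSP6 overlaps.

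The MAP2Ks split by paralog. Of 6 measured, MAP2K6 and MAP2K4 rose, MAP2K3 and MAP2K2 fell, and MAP2K1 and MAP2K5 did not pass. That is 33.3% each way, against 25.1% higher and 21.6% lower of all genes. MAP2K6 (MKK6), which activates p38, lay at 6.14, 6.63, 7.75 and 6.99 in RWDD4 clones 17, 24, 5 and 6, against 5.48, 5.47, 5.15 and 5.73 in control clones 2, 3, 4 and 5. The RWDD4 clones spanned over 1.5 log2 units, highest in clone 5, yet did not overlap the control clones, and the rise was 1.42 (SE 0.28), or 2.67-fold (adjusted p 0.00217). MAP2K3 (MKK3), its closest relative and also a p38 activator, had 7.12, 7.29, 7.21 and 7.10 in the RWDD4 clones, against 7.90, 7.49, 7.72 and 7.56 in the control clones. Here every RWDD4 clone was lower, and the fall was 0.49 (SE 0.11) (adjusted p 0.00377).

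MAP2K4 (MKK4), which activates JNK, measured 6.45, 6.59, 6.68 and 6.43 in the RWDD4 clones, against 6.11, 5.57, 5.56 and 5.88 in the control clones, higher in every RWDD4 clone, a rise of 0.76 (SE 0.13) (adjusted p 0.00109). The ERK activators are MAP2K2 and MAP2K1. MAP2K2 (MEK2) had 5.94, 6.11, 5.94 and 6.26 in the RWDD4 clones, against 6.73, 6.60, 6.49 and 6.63 in the control clones, lower in every RWDD4 clone, a fall of 0.55 (SE 0.10) (adjusted p 0.00145). MAP2K1 (MEK1) had 9.96, 10.13, 9.88 and 10.24 in the RWDD4 clones, against 9.62, 10.17, 10.16 and 10.22 in the control clones, with the groups overlapping and control clone 2 below all others, and a difference of 0.01 (SE 0.14) (adjusted p 0.96). MAP2K5, the activator of ERK5, had a difference of 0.15 (SE 0.15), with RWDD4 clone 6 (7.24) above the other 7 clones.

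At the MAPK level 2 of 10 rose and 5 fell (20% and 50%, against 25.1% and 21.6% of all genes). MAPK9 (JNK2) was at 8.01, 7.95, 8.21 and 8.20 in RWDD4 clones 17, 24, 5 and 6, against 7.63, 7.33, 7.32 and 7.32 in control clones 2, 3, 4 and 5. All RWDD4 clones were higher, and the rise was 0.69 (SE 0.11), or 1.62-fold (adjusted p 0.000548). MAPK6 (ERK3), an atypical MAPK outside the classical modules, had 6.20, 6.20, 6.62 and 7.16 in the RWDD4 clones, against 5.14, 5.41, 5.42 and 5.49 in the control clones, with the RWDD4 clones spread and clone 6 highest, a rise of 1.18 (SE 0.20) (adjusted p 0.000803). Its relative MAPK4 (ERK4) fell by 0.29 (SE 0.11) with an adjusted p of 0.0482.

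Falls covered ERK1 and part of the p38 family. MAPK3 (ERK1) had 8.45, 8.24, 8.18 and 8.21 in the RWDD4 clones, against 8.76, 8.54, 8.50 and 8.55 in the control clones, a fall of 0.32 (SE 0.10) (adjusted p 0.0223) with no overlap between the groups. The call of MAPK3 was lost without RWDD4 clone 24, 5 or 6 or control clone 2 (adjusted p up to 0.0656), and after removal of the trend over genomic span (-0.11). MAPK12 (p38 gamma) had 6.84, 7.22, 7.11 and 7.05 in the RWDD4 clones, against 7.50, 7.79, 7.76 and 7.44 in the control clones, a fall of 0.56 (SE 0.12) (adjusted p 0.00294). MAPK11 (p38 beta) fell by 0.48 (SE 0.12), while MAPK13 (p38 delta) had a difference of -0.27 (adjusted p 0.138, or 0.0274 without control clone 2). MAPK15 fell by 0.39 (SE 0.11); its other probe set had a difference of -0.24 and did not pass with all probe sets tested together (adjusted p 0.0787). MAPK7 (ERK5) and MAPK10 (the neuronal JNK3, near the low end of the scale at 3.67 in the RWDD4 clones and 3.74 in the control clones) did not pass, with differences of -0.20 and -0.06.

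Of 23 DUSPs 5 rose and 5 fell (21.7% each, against 25.1% and 21.6% of all genes), and none of the 3 Sproutys measured passed. The DUSPs are of separate kinds, and they are described separately here, a division made after their values were seen. Of the 10 classical MAPK phosphatases, which carry a kinase-binding domain, 0 rose and 3 fell (median -0.22, 4 at an unadjusted p under 0.05), and of the 13 others 5 rose and 2 fell (median -0.06). Those are 0% and 30.0% of the classical phosphatases and 38.5% and 15.4% of the others, against 25.1% and 21.6% of all genes, and nothing is read from such small sets.

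Among the classical phosphatases DUSP8, which acts on JNK and p38, was at 6.44, 6.52, 6.20 and 6.55 in the RWDD4 clones, against 6.98, 7.18, 6.75 and 6.79 in the control clones. All RWDD4 clones were lower, by 0.50 (SE 0.12) (adjusted p 0.0068). DUSP5, a nuclear phosphatase of ERK and a target of ERK signalling, had 10.03, 10.44, 9.99 and 10.004 in the RWDD4 clones, against 10.43, 10.69, 10.72 and 10.61 in the control clones. RWDD4 clone 24 stood above the other RWDD4 clones and overlapped control clone 2, and the fall was 0.49 (SE 0.12) (adjusted p 0.00727). A second DUSP5 probe set, at a lower level, fell by 0.55 (SE 0.16; adjusted p 0.0302 with all probe sets tested together). DUSP2, an ERK and p38 phosphatase best known in lymphocytes, fell by 0.46 (SE 0.12), with RWDD4 clone 17 (7.74) within the control range.

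DUSP6, DUSP4 and DUSP1 did not pass. DUSP6, the cytoplasmic ERK phosphatase, had 10.44, 10.63, 10.56 and 10.50 in the RWDD4 clones, against 10.41, 10.64, 10.70 and 10.78 in the control clones, with overlapping groups and a difference of -0.10 (SE 0.10) (adjusted p 0.428). DUSP4, a nuclear phosphatase, had 10.15, 9.76, 10.17 and 10.10 in the RWDD4 clones, against 9.61, 9.68, 9.90 and 9.98 in the control clones, a difference of 0.25 (SE 0.12) (adjusted p 0.117). Without RWDD4 clone 24, the lowest of its group, the DUSP4 difference was 0.35 and passed (adjusted p 0.0359). DUSP1, an immediate early phosphatase of p38 and JNK, measured 8.42, 8.21, 7.88 and 8.20 in the RWDD4 clones, against 8.40, 8.66, 8.48 and 8.37 in the control clones, a difference of -0.30 (SE 0.12) (adjusted p 0.0666). The DUSP1 difference passed without RWDD4 clone 17, at -0.38 (adjusted p 0.0311), and after quantile normalization, at -0.48, but was -0.01 with the trend over genomic span removed. DUSP6 changed sign in that fit, to 0.17, and did not pass. DUSP7, DUSP9, DUSP10 and DUSP16 had differences between -0.26 and 0.09.

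DUSP19, a small phosphatase that binds components of the JNK module, had the largest rise of the 23 DUSPs. It lay at 4.86, 4.86, 4.902 and 5.14 in the RWDD4 clones, against 3.80, 3.95, 3.96 and 4.20 in the control clones, apart in all clones, a rise of 0.96 (SE 0.11), or 1.95-fold (adjusted p 0.000116), with all but RWDD4 clone 6 under 4.93, the median of all probe sets. DUSP11, whose main substrate is RNA, and DUSP12, known for ribosome assembly, rose by 0.80 (SE 0.14) and 0.76 (SE 0.12) without overlap. DUSP18 rose by 0.49 (SE 0.14) and DUSP22, which acts in the JNK pathway, by 0.26 (SE 0.09). DUSP23 and DUSP26 fell by 0.35 (SE 0.12) and 0.27 (SE 0.10). DUSP3, DUSP14, DUSP15, DUSP21, DUSP28 and DUSP29 did not pass, with differences between -0.31 (DUSP15) and 0.33 (DUSP3). Of these, DUSP3 passed without control clone 3 (adjusted p 0.0148), DUSP15 without control clone 3 or RWDD4 clone 24 (the lower p 0.0192), DUSP21 without control clone 5 (0.0364) and DUSP29 without control clone 2 (0.0489).

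SPRY4 had 9.52, 10.01, 9.86 and 9.03 in the RWDD4 clones, against 9.93, 9.82, 10.05 and 9.76 in the control clones, widest among the RWDD4 clones, where clone 6 was lowest. SPRY2 had 8.11, 7.79, 7.94 and 7.91 in the RWDD4 clones, against 7.88, 8.05, 8.25 and 8.11 in the control clones. Both are feedback inhibitors induced by ERK, and neither passed, with differences of -0.29 (SE 0.18) and -0.14 (SE 0.11) (adjusted p 0.22 and 0.316). After quantile normalization SPRY2 passed at -0.33; once the span trend was taken out it changed sign, to 0.14, and did not pass. SPRY3 had a difference of 0.02 (SE 0.10) at a mean level near the median of all probe sets; with the trend over genomic span removed it passed as lower, at -0.27 (adjusted p 0.0442), as did MAP3K9 (-0.32), DUSP29 (-0.37) and DUSP15 (-0.35), while DUSP3 passed as higher (0.47).

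Of the 34 genes that changed, 28 kept their call whichever single clone was left out (16 higher, 12 lower). Beside MAPK3, the exceptions were MAPK4 (-0.34 to -0.20, lost in 7 of 8 leave-outs), DUSP26 (-0.32 to -0.20, 7 of 8), DUSP22 (0.20 to 0.31, 6 of 8), MAP3K19 (-0.45 to -0.28, 5 of 8) and DUSP23 (-0.41 to -0.26, 5 of 8). MAPK4 and MAP3K19 also lost their calls after quantile normalization, median centring and cyclic loess. DUSP23 and DUSP26 lost theirs after median centring and cyclic loess, MAPK15 after cyclic loess and DUSP22 after quantile normalization. With all probe sets tested together MAPK4, MAP3K19, DUSP22, DUSP23 and DUSP26 lost theirs. The main direction in which clones of 1 group differ from each other holds 38.9% of the variance within groups. When a clone's place on that axis entered the limma fit, 0 of the 62 genes passed, and 1 of all 14884 did. At an unadjusted p under 0.05, 4 of the 62 were higher and 5 lower in that fit. Control clone 2 lay farthest out on this axis, at -1.77, against -0.74 to -0.37 for the other control clones and 0.60 to 1.09 for the RWDD4 clones, and group and axis ran largely together. In that fit MAP2K4 and MAPK9 had differences of 1.19 (SE 0.25; adjusted p 0.14) and 0.93 (SE 0.22; 0.168), against 0.76 and 0.69 as reported, while MAP3K2 had a difference of -0.19 (SE 0.30). MAP4K4, MAP3K19 and MAPK4 changed sign as well.

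**Figure D3:**
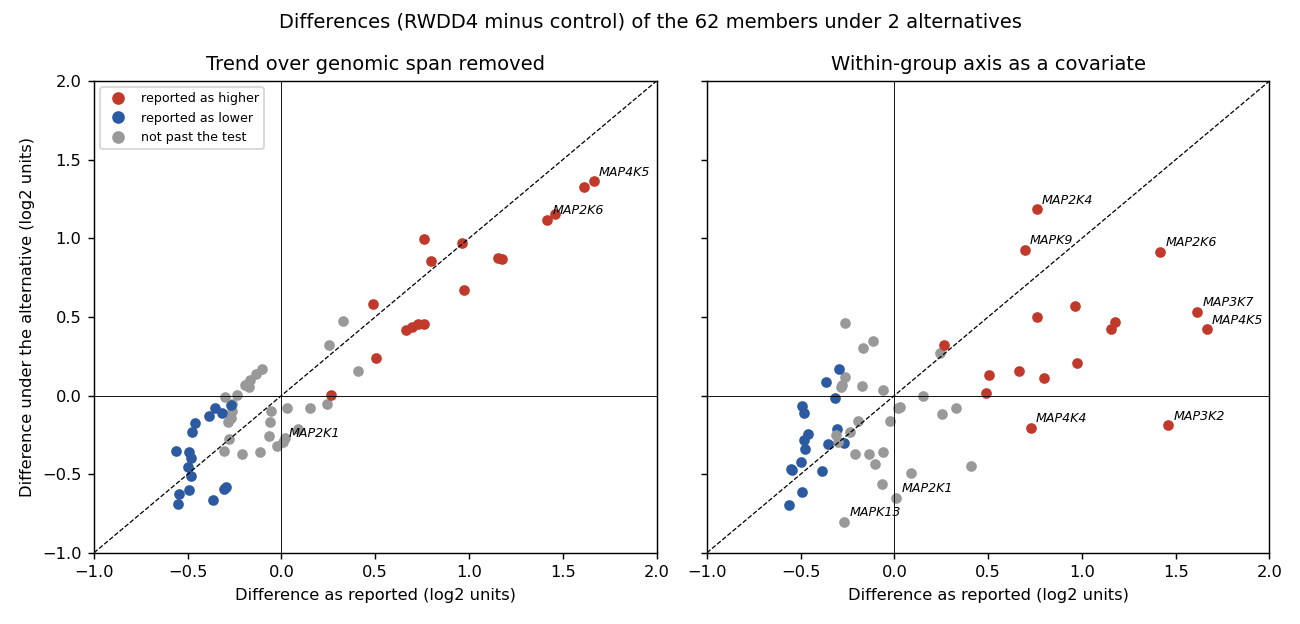
Difference of each of the 62 genes as reported (horizontal axis) against its difference under an alternative (vertical axis, both in log2 units), with equality dashed. With the trend over span removed (left) most rises lie a little below the line, and with the axis within groups in the fit (right) most of the rises shrink, MAP3K2 and MAP4K4 lie below 0, and MAP2K4 and MAPK9 lie above the line.

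Genomic span, the length of a gene from start to end, went with the direction. Across the 62 genes, which share the same arrays, Spearman's rho between span and difference was 0.503, against 0.363 across all 14884 genes; within the 36 kinases it was 0.63 and within the 26 inhibitors 0.367. Among the 31 genes of longer span (27.8 to 584 kb) 13 rose and 6 fell, and among the 31 shorter ones (0.868 to 25.1 kb) 4 rose and 11 fell. Of all genes, whatever their span, 25.1% rose and 21.6% fell. Shares of all genes within these span ranges were not computed, so the split is not shown to be particular to the cascade genes. The kinases had a median span of 73.7 kb and the inhibitors 14.1 kb, against 20.7 kb for all genes. The 12 kinases that rose had a median span of 132 kb and the 12 that fell 26.0 kb. The 6 longer genes that fell were MAPK4 (172 kb), MAP3K19, MAP3K3, MAP2K2, MAP2K3 and MAP3K8, and the 4 shorter genes that rose were DUSP12 (7.45 kb), DUSP18, DUSP11 and DUSP19. After each array's trend over span was removed, 15 of the 17 genes that rose and 11 of the 17 that fell still passed in the same direction. The calls lost were those of MAPK11 (-0.23), MAPK15 (-0.13), MAPK3 (-0.11), DUSP2 (-0.17), DUSP23 (-0.08), DUSP26 (-0.06), MAP3K13 (0.24) and DUSP22 (0.01). The difference was then 1.33 for MAP3K7, 1.36 for MAP4K5, 1.12 for MAP2K6 and 0.97 for DUSP19. The part of span in these results was not tested beyond that alternative.

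**Figure D4:**
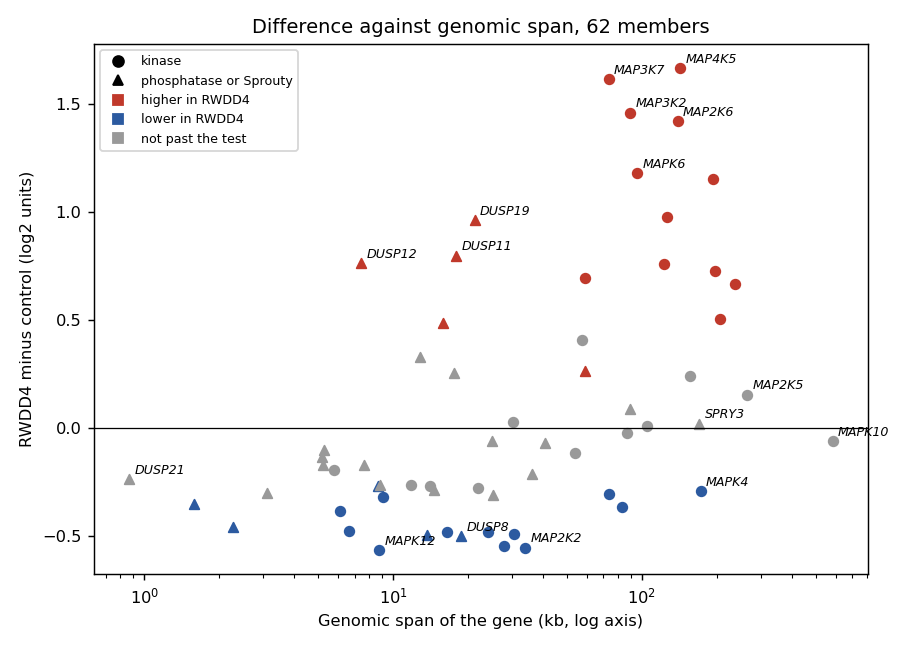
Difference between RWDD4 and control clones (vertical axis, log2 units) against genomic span (horizontal axis, kb, log scale) for 36 kinases (circles) and 26 phosphatases and Sproutys (triangles). The largest rises lie at spans of 70 kb or more, and DUSP12, DUSP11 and DUSP19 rose at spans of 7.45 to 21.3 kb.

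Around the cascade, 89 other genes of the pathway were measured from lists by role; 34 rose and 22 fell (38.2% and 24.7%, against 25.1% and 21.6% of all genes; median -0.05). The lists are small, and nothing is read from their single counts. Of 5 genes of the RAS and RAF families, RRAS2 rose by 0.58, and RRAS and the MAP3K-like kinase ARAF fell by 0.98 and 0.40. Of 13 genes that set RAS activity 6 rose and 3 fell. The exchange factor SOS1 and the RAS inhibitor NF1 led the rises, at 1.86 and 1.63, and the adaptor SHC1 and LZTR1, which directs RAS proteins to degradation, fell by 0.60 and 0.47.

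Scaffolds were split as well, with 5 of 14 higher and 3 lower (35.7% and 21.4%, against 25.1% and 21.6% of all genes). SHOC2, which helps activate RAF, and IQGAP1, which binds MEK and ERK, rose by 2.28 and 1.86; the JNK scaffold MAPK8IP3 and the TAK1 partner TAB1 fell by 0.49 and 0.43. TAB2 and TAB3, adaptors of the same kinase, were chosen after their values were seen; they rose by 1.27 and 1.24. Of 15 other kinases of the STE20 and MAPK-like branches 9 rose and 3 fell (60% and 20%, against the same shares of all genes). The largest rises were those of STK26 (1.58) and TAOK1 (1.51), and the largest falls those of MINK1 (-0.66) and TAOK2 (-0.56). Of 5 kinases that MAPKs activate, MAPKAPK5 rose by 0.65. Of the other phosphatases 2 were measured: STYX, a pseudophosphatase that binds ERK, rose by 1.23, and STYXL1 had a difference of -0.06.

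Downstream, 5 of 12 nuclear substrates rose and 4 fell (41.7% and 33.3%, against 25.1% and 21.6% of all genes). ATF2, a factor that JNK and p38 phosphorylate, and MEF2A, a p38 substrate, rose by 1.17 and 1.06, and the AP-1 subunit JUND and the ERK-regulated repressor ERF fell by 0.70 and 0.61. Genes induced by active ERK gave 2 rises and 4 falls of 15, 5 of them also in the 62 (13.3% and 26.7%, against 25.1% and 21.6% of all genes; median -0.14): ETV1 and ETV5, ETS factors, rose by 1.02 and 0.41, and IER3, an early response gene, and DUSP5 fell by 0.64 and 0.49. Of 13 receptors and ligands upstream 4 rose and 4 fell (30.8% each, against 25.1% and 21.6% of all genes). The largest rises were those of MET (1.78) and EGFR (1.43), and the largest falls those of FGFR4 (-0.63) and FGFR2 (-0.44).

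**Figure D5:**
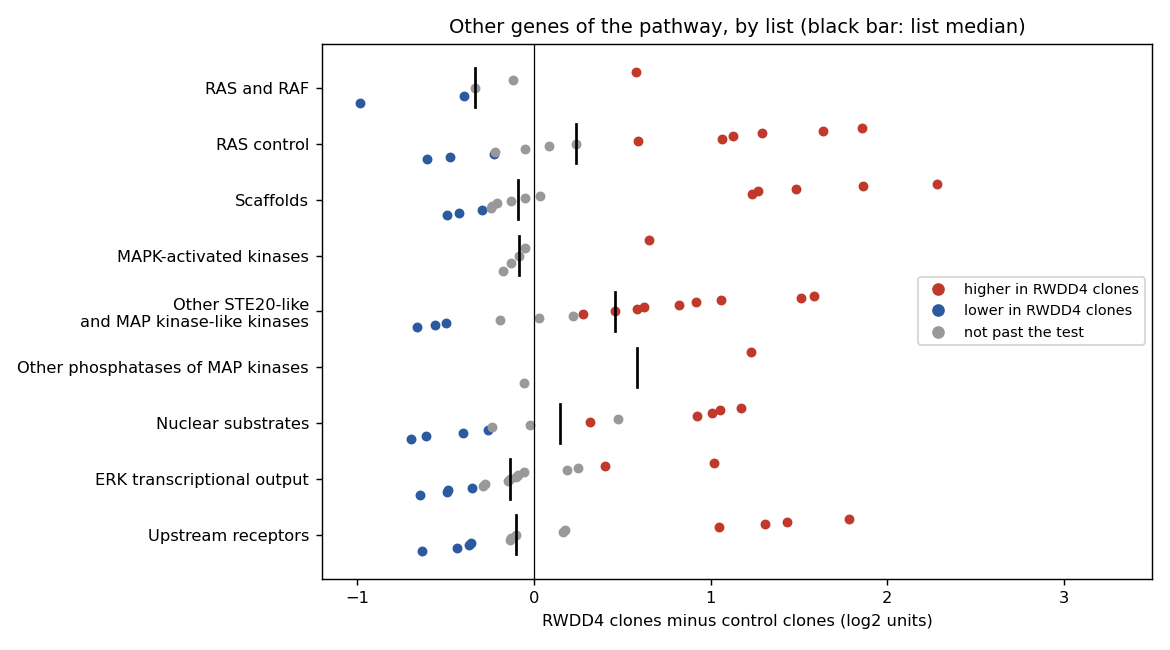
Difference between RWDD4 and control clones (horizontal axis, log2 units) for the measured genes of 9 pathway lists (rows), coloured by the test, with the list median as a black bar. All lists but the MAPK-activated kinases and the other phosphatases hold genes that passed the test in both directions.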

How the data were processed

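Gene expression was measured on Affymetrix arrays in 8 clones, 4 per group, with groups and clone numbers from the labels. The authors deposited log2 values per probe set, and per the submitters' processing notes the tools were Partek and RMA, with no version listed. RMA normalizes arrays to each other, compresses small changes near background and does not compare levels between genes. The deposited arrays still differed by group. The SD over all probe sets was 2.19 to 2.21 in RWDD4 clones, against 2.10 to 2.15 in controls, and the median 4.89 to 4.90, against 4.92 to 4.96. In the fit with array weights control clone 2 had the lowest weight, 0.40, against 0.78 to 1.42 for the others. The part of this in the results was not tested beyond the alternatives. The build is not given in the sources used here, nor are batches or whether clones were grown apart, so p-values measure the spread between these clones. No 2 arrays were identical. The number of arrays limits the precision.

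Of 53617 probe sets 16098 had 1 gene symbol, none had several and 37519 were unlisted; each of 14884 genes was read from its probe set of highest mean (65 probe sets for the 62 cascade genes). Span came from a human gene table (GRCh38.p14) matched by gene ID for all genes. The groups were compared with lmFit and eBayes of limma 3.58.1 (R 4.3.3), without covariates, two-sided, Benjamini-Hochberg adjusted over all genes; no filter on low values was applied. The steps were tested on simulated data. The genes and lists were chosen with earlier results of these data known. Values in every clone are given for genes past the test without overlap and with a difference of at least 0.8, for the 6 largest such falls, and for genes named for their place in the pathway (24 in all); from each list the 2 largest rises and falls past the test are named. Other genes are named to account for every gene. Alternatives covered the variance model, probe set choice, a level filter, 3 scalings, array weights, all probe sets, span, the within-group axis and leaving out each clone.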

Additional observations from a re-analysis of the deposited data

Results flagged for a closer look

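In 13 of 126 sets of 4 values (63 genes, both groups) 1 clone lay far from the other 3, with a gap to its nearest neighbour above Dixon's 95% critical value; chance flags about 1 in 20 sets, or 6.3 here. No cause was tested.

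Control clone 2 was the distant clone in 4 genes: MAP2K1 (9.62, others 10.16 to 10.22), MAP4K4 (9.24, others 9.90 or more), MAPK9 (7.63, others 7.32 to 7.33) and DUSP7 (8.96, others 8.77 to 8.80). RWDD4 clone 6 was so in 3: RWDD4 itself (9.87, others 10.42 to 10.46), MAP2K5 (7.24, others 6.55 to 6.61) and DUSP19 (5.14, others near 4.86). RWDD4 clone 24 stood apart in DUSP4 (9.76, others 10.10 to 10.17) and DUSP5 (10.44, others 9.99 to 10.03). The remaining 4 were MAP3K10 in RWDD4 clone 5 (6.66, others 6.85 to 6.88), MAPK4 in RWDD4 clone 17 (5.26, others 5.10 to 5.12), MAPK7 in control clone 4 (7.52, others 7.67 to 7.69) and DUSP12 in control clone 5 (7.38, others 7.06 to 7.12).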

How the results depend on the processing

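Over 20 alternatives to the comparison, the counts of cascade genes, of kinases and of other pathway genes stayed within 1.5 times those reported, higher and lower, except when the clone's place on the within-group axis was a covariate. There all 8 counts, those of the inhibitors included, were 0, the RWDD4 difference was 1.88 (SE 0.43; adjusted p 0.159) and MAP3K2 changed sign (-0.19). The cause was not tested. The inhibitors lower numbered 9 after quantile normalization and 3 after median centring, after cyclic loess and with all probe sets tested together. Leaving out each clone gave 3 to 6. Of all genes the share lower was 24.8%, 15.9%, 14.8% and 17.2% in those 4 settings, against 21.6% as reported. It was 15.2% to 20.4% when each clone was left out. For the 18 named genes that passed, 336 of 341 comparisons under the other alternatives kept the call, and the 5 lost were all of MAPK3. No paired analysis was possible, because the clones are separate lines with no pairing. The clone number 5 occurs in both groups but does not mark a pair. Detection calls were not used here; 5 of the 62 genes had a mean under the median of all probe sets.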
